A study of Bos taurus with 25 samples.

Results

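MYOM1 and MYOM2 encode myomesins, the proteins that tie the thick filaments of striated muscle together at the M-band. They were measured in liver and mammary gland biopsies of Holstein dairy cows given vitamin B9, vitamin B12 or both. All probes of the array whose RefSeq name maps to either symbol were taken. They came to 7 of the 43653 probes and to 2 of the 11068 gene symbols that could be assigned. The genes were chosen by measured values, since MYOM1 was selected on its lower liver levels with B9 and with B12 on these same arrays. The liver treatment differences below are therefore a description without a test. The gland values did not enter that choice and were tested. The comparison of tissues and the relation across cows were also tested, but for MYOM1 they use the liver values that chose the gene.

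The 25 arrays came from 13 lactating cows, each array holding the RNA of a single biopsy without pooling, taken 64 ± 3 days after calving. Every cow received a weekly intramuscular injection of 5 mL. Control cows (Ctl) had 0.9% saline, B9 cows had 320 mg of folic acid, B12 cows had 10 mg of vitamin B12 as cyanocobalamin, and B9_B12 cows had 320 mg of folic acid with 10 mg of vitamin B12. Liver was measured in 3 Ctl, 3 B9, 4 B12 and 2 B9_B12 cows, and the gland in the same cows with 1 more in B9_B12, so that 12 cows gave both tissues. Each cow is named by its number in the labels. In a biopsy of mixed cells, fewer cells of a type and less RNA per cell cannot be told apart.

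The sarcomere is the contractile unit of skeletal and heart muscle. In its middle lies the M-band, where myomesin dimers cross-link neighbouring myosin filaments and bind titin. MYOM1 is found in all striated muscles, MYOM2 mainly in fast skeletal fibres and in heart, and neither is a marker of hepatocytes or of milk-secreting cells. Vitamins B9 and B12 meet in the transfer of methyl groups from folate to homocysteine, and B12 is also the cofactor that lets propionate carbon enter the citric acid cycle in ruminant liver.

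MYOM1 was covered by the probes A_73_P142236, A_73_P064251 and A_73_P460156, and MYOM2 by A_73_P293951, A_73_P034976, A_73_P206487 and A_73_P112381. The probe of each gene with the highest mean over all arrays, A_73_P142236 and A_73_P293951, is called the leading probe. Both leading probes, A_73_P034976 and A_73_P206487 were well above background on all 25 arrays. A_73_P064251 was well above background on 12 of 12 liver arrays and on 0 of 13 gland arrays. A_73_P460156 and A_73_P112381 were not well above background on any array, and their values carry no level of either gene. No member spot was saturated. Each array's share of probes well above background ran from 71.2 to 84.2% in liver and from 64.5 to 76.5% in gland, and the number of arrays limits the precision.

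The biopsies carried the markers of their labelled tissue. Of the hepatocyte genes, 11 of 11 measured were called as higher in liver by limma (adjusted p no greater than 0.05, with a change of 2-fold or more), and 6 of 6 measured genes of milk-secreting epithelium were lower there by the same rule. The liver arrays of cow 57 (B9) and cow 32 (B9_B12) stood apart, with a mean correlation to the other liver arrays of 0.972 in both, against 0.986 to 0.988 in the rest. The later of the 2 scan days held 1 slide, with the livers of Ctl cow 43, B12 cow 37 and B9_B12 cow 32. Values within a slide and within a scan day are given beside the results.

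In liver, MYOM1 was highest in the control cows and lower in most treated cows. Values are log2 intensities from the authors' table. At the leading probe, the control livers read 12.84 (cow 42), 13.58 (cow 43) and 11.94 (cow 51). The B9 livers read 9.45 (cow 39), 11.04 (cow 41) and 10.41 (cow 57). All 3 B9 values lay below all 3 control values. The B12 livers read 8.81 (cow 36), 10.30 (cow 37), 12.43 (cow 40) and 9.97 (cow 52). Cow 40 stood within the control range and the other 3 B12 cows lay below every control. The B9_B12 livers read 11.47 (cow 32) and 10.48 (cow 38), both below every control. Before any normalization, the same spots had a median signal of 3975 to 11552.5 in the controls, 799.5 to 1993 in B9, 510 to 5476 in B12 and 1543.5 to 2114 in B9_B12, over a local background of 15 to 35.

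The group means at the leading probe were 12.79 ± 0.82 in Ctl (SD, n = 3), 10.30 ± 0.80 in B9 (n = 3), 10.38 ± 1.51 in B12 (n = 4) and 10.98 ± 0.70 in B9_B12 (n = 2). Relative to the controls, B9 was lower by a factor of 5.6, B12 by a factor of 5.32 and B9_B12 by a factor of 3.5. The ranges of the 3 treated groups overlapped each other, and only the controls lay apart, with cow 40 of B12 as the exception. All 3 comparisons use the same 3 control livers, so they do not support each other. Since these arrays chose the gene, its place among all probes is given as background only. Treated livers lay entirely below controls for 4.16% of all probes with B9, 2.51% with B12 and 9.97% with B9_B12. A difference of at least 2-fold downwards was reached by 0.504%, 0.263% and 1.42% of probes in the same order.

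**Figure D1:**
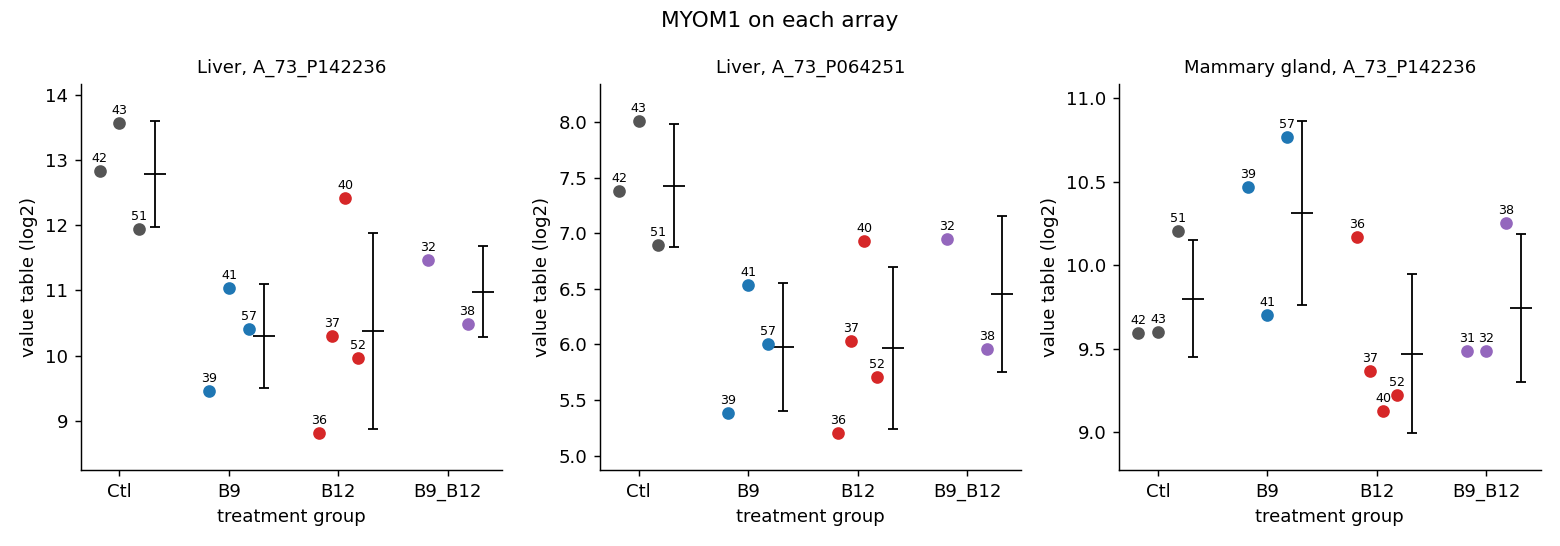
MYOM1 on each array, as log2 values of the authors' table, for 2 probes in liver and the leading probe in mammary gland. Points are single cows with their numbers, and the bar beside each group is its mean with 1 SD (Ctl n = 3, B9 n = 3, B12 n = 4, B9_B12 n = 2 in liver and 3 in gland). In liver the control cows sit at the top at both probes, with B12 cow 40 among them. In gland the groups overlap, and the vertical axes differ in range between panels.

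The second MYOM1 probe, A_73_P064251, carries the same transcript name and ordered the livers much alike. Its control values were 7.38 (cow 42), 8.01 (cow 43) and 6.90 (cow 51). The B9 cows had 5.39 (cow 39), 6.54 (cow 41) and 6.01 (cow 57), all below the controls. The B12 cows had 5.20 (cow 36), 6.03 (cow 37), 6.93 (cow 40) and 5.71 (cow 52), where only cow 40 reached the control range. The B9_B12 cows had 6.95 (cow 32) and 5.96 (cow 38), and cow 32 was here just above the lowest control. The differences from control on the log2 scale were -1.45 for B9, -1.46 for B12 and -0.97 for B9_B12. Across the 12 livers both probes gave Pearson's r = 0.984 and Spearman's rho = 0.951, and r = 0.970 with the 2 farthest arrays left out. These levels hold the treatment differences that chose the gene and are given without a test. After the treatment mean was taken from each value, r was 0.967 (exact permutation within treatment groups, p = 0.000579, the smallest of 1728 orderings) and rho was 0.979 (exact p = 0.000579), so the cows also differed alike at both probes inside the groups. This is 1 of the 11 relations examined, and both coefficients had an adjusted p of 0.00212. Both probes name the same transcript and were read on the same arrays. The relation thus concerns the probes alone and adds nothing on the treatments.

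MYOM1 varied widely between livers. From cow 36 to cow 43 the leading probe spanned 4.76 on the log2 scale, a 27.2-fold range, and its SD over the 12 livers was larger than that of 99.8% of all probes. The second probe spanned a 7-fold range, with an SD above that of 98.3% of probes. These ranges and SDs hold the treatment differences that chose the gene. Within the treatment groups the liver SD of the leading probe was 1.11. Against the median signal over background of the array, r of the leading probe was -0.10 and rho was -0.08, with r = -0.19 without the 2 farthest arrays. These are given without a test.

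Some of the liver arrays shared a slide, which allows differences within a slide. On the slide of Ctl cow 42, B9 cow 57 differed by -2.43 on the log2 scale and B9_B12 cow 38 by -2.36. On the slide scanned on the later day, B12 cow 37 differed from Ctl cow 43 by -3.28 and B9_B12 cow 32 by -2.10. On the slide of Ctl cow 51, B12 cow 40 differed by +0.48. The treated cow was lower in 4 of these 5 pairs. The pairs share control cows and use the values that chose the gene, so they are a description only. With only the earlier scan day, the differences were -2.09 for B9 (3 against 2 cows), -1.99 for B12 (3 against 2) and -1.91 for B9_B12 (1 against 2). With slide as a fixed term the B12 difference shrank from -2.41 to -1.56, whereas B9 gave -2.11 and B9_B12 -1.72. Without cow 40 the B12 difference was -3.09.

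**Figure D2:**
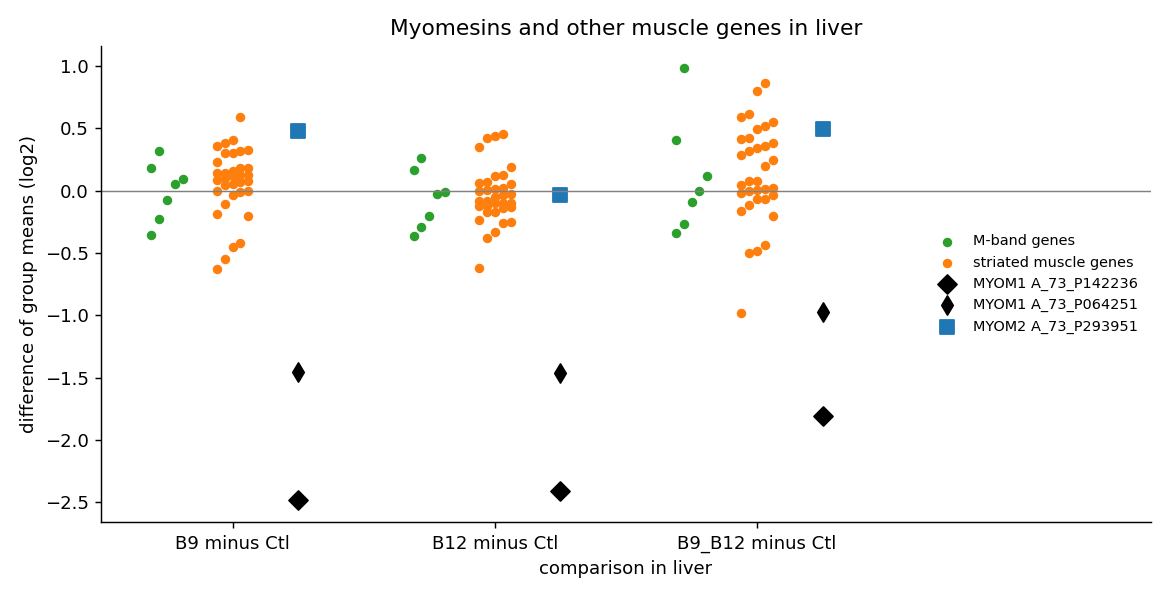
Difference of group means in liver (log2, treated minus Ctl) for the MYOM1 probes, the leading MYOM2 probe, the 7 measured genes of the M-band list and the 34 measured genes of the striated muscle list, each gene as a point. The MYOM1 diamonds lie below the muscle genes in B9 and B12. In B9_B12 the second MYOM1 probe (-0.97) lies close to the lowest muscle gene, MYL2 (-0.98).

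The listed genes of the M-band gave no call in liver. Of 11 genes known from the M-band or bound to it, 7 had a named probe, 4 of these were well above background on all livers, and 0 of 7 passed in any of the 3 comparisons by limma under the rule given above. Over all probes limma called 0, 1 and 0 for B9, B12 and B9_B12 (0, 0.00229 and 0%), and 1491, 867 and 2609 probes had an unadjusted p under 0.05. Cyber-T, the test the study used, called 5, 48 and 26 (0.0115, 0.11 and 0.0596%). The median M-band difference was 0.06 with B9, -0.03 with B12 and -0.0009 with B9_B12, beside 0.02, 0.001 and 0.02 over all probes. NBR1, an autophagy receptor that binds the titin kinase domain at the M-band, ranged from 8.81 to 9.26 in Ctl and from 8.70 to 9.46 over the treated livers, with means of 9.07 in Ctl, 8.87 in B12 and 9.19 in B9_B12. SQSTM1 (p62), its partner in autophagy, averaged 12.22 in Ctl, 12.31 in B9, 12.48 in B12 and 13.21 in B9_B12. All its treated groups overlapped the controls, and the genes below follow this order. FHL2, a LIM-domain protein of heart muscle that binds titin, averaged 7.54, 7.60, 7.70 and 7.94. CKM, the muscle creatine kinase that docks at the M-band, averaged 5.48, 5.79, 5.44 and 5.47.

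The remaining M-band genes were dim in liver. OBSL1, an obscurin-like cytoskeletal linker, was well above background on 3 of 12 livers and averaged 5.50, 5.14, 5.14 and 5.16. TRIM63 (MuRF1), a ubiquitin ligase of muscle, was so on 5 of 12 livers and averaged 5.20, 5.39, 5.19 and 5.11. LRRC39 (myomasp), a partner of the myosin heavy chain at the M-band, was well above background on 0 of 12 livers, and the separation of its treated from its control values (5.04 to 5.19 in Ctl) lies below what that probe can measure.

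The wider set of striated muscle genes gave no call in liver either. Of 45 listed genes 34 had a named probe, 18 of them well above background on all livers and 2 on none (MYOT of the Z-disc and the thick filament gene MYBPC1). Limma called 0 of the 34 in B9, B12 and B9_B12, beside 0, 0.00229 and 0% of all probes. At an unadjusted p under 0.05 there were 2, 1 and 2, beside 3.42, 1.99 and 5.98% of all probes. Entirely above the controls lay 1, 1 and 9, beside 4.28, 2.45 and 11.8% of all probes. Entirely below lay 3, 0 and 2, beside 4.16, 2.51 and 9.97%. Their median difference was 0.11 with B9, -0.06 with B12 and 0.08 with B9_B12. The summed level of the list was 12.78 to 13.07 in Ctl, 12.73 to 13.59 in B9, 12.72 to 12.88 in B12 and 13.03 to 13.33 in B9_B12. Each treated group overlapped the controls in this sum, with B12 in their lower part and with the highest values in B9. The part of muscle tissue in the MYOM1 values was not tested.

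The brightest muscle-list genes in liver were DES, MYBPC3, MYOD1, ACTA1, MYOZ1 and TPM2. DES, the intermediate filament desmin that hepatic stellate cells also make, ran from 10.47 to 11.26 in Ctl and from 10.33 to 11.41 over all treated livers. ACTA1, skeletal alpha-actin, was higher in all B9 livers (9.68 to 9.74) and all B12 livers (9.60 to 9.89) than in Ctl (9.36 to 9.47), by 0.31 and 0.35. Such separation upwards was shown by 4.28% of all probes with B9 and 2.45% with B12. MYBPC3, a myosin-binding protein of heart, averaged 9.85 in Ctl, 10.44 in B9, 9.67 in B12 and 10.40 in B9_B12, and MYOD1, a transcription factor of muscle precursors, averaged 9.49, 9.86, 9.41 and 10.11. MYOZ1, a Z-disc protein of fast fibres, averaged 9.76, 9.34, 9.42 and 9.27, and TPM2, beta-tropomyosin, averaged 8.85, 8.94, 8.86 and 9.37. MYOD1 and TPM2 belonged to the genes entirely above the controls with B9_B12. Among genes of the thick and thin filaments, MYH1 and MYH2 were each well above background on 1 of 12 livers, TNNT1 on 1, MYL2 on 2, MYL1 on 8 and TNNT3 on 9, whereas MYH7, MYL3 and TNNI3 were so on 12 of 12.

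Smooth muscle genes and milk genes were read in the same livers, where limma called 0, 0.00229 and 0% of all probes with B9, B12 and B9_B12. The summed level of 12 smooth muscle genes ran from 15.13 to 15.59 in Ctl, 14.95 to 15.61 in B9, 15.40 to 15.48 in B12 and 15.49 to 15.57 in B9_B12, and 0 of 12 were called. Genes of milk-secreting epithelium, of which 6 of 6 measured were well above background on all livers, had a summed level of 10.05 to 10.15 in Ctl, 10.57 to 12.27 in B9, 9.53 to 13.64 in B12 and 10.81 to 11.13 in B9_B12. Treated livers lay entirely above controls for 5 of these 6 genes with B9, 0 with B12 and 5 with B9_B12, beside 4.28, 2.45 and 11.8% of all probes, and 0 were called. Their part in the MYOM1 values was not tested. Hepatocyte genes summed to 21.48 to 21.66 over all 12 livers.

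The leading MYOM2 probe overlapped the controls in each treated group in liver. It read 7.31, 6.75 and 6.14 in Ctl cows 42, 43 and 51. It read 7.09, 6.53 and 8.01 in B9 cows 39, 41 and 57, and the highest of these was the array of cow 57. The B12 livers read 6.68, 6.78, 6.32 and 6.998 (cows 36, 37, 40 and 52), and the B9_B12 livers 7.27 and 7.19 (cows 32 and 38). Cow 57 alone lay above all controls. The differences from control were 0.48 for B9, -0.04 for B12 and 0.49 for B9_B12, against a control SD of 0.59. Leaving out cow 57 moved the B9 difference to 0.08, and leaving out Ctl cow 51 moved B9 to 0.18 and B9_B12 to 0.20.

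Cow 57 was also the highest liver at the other MYOM2 probes well above background. A_73_P034976 read 7.69 in cow 57 and 5.70 to 6.64 in the other 11, and cow 39 of B9 (6.64) was above all controls there too. A_73_P206487 read 6.14 in cow 57 and 5.48 to 6.03 in the others. At that probe both B9_B12 livers (5.68 and 6.03) lay above every control (5.50 to 5.66), a difference of 0.29, and such separation upwards was shown by 11.8% of all probes. Between the leading probe and A_73_P034976 over the 12 livers r was 0.900 (permutation p = 7e-05, adjusted p = 0.000385), rho was 0.895 (permutation p = 0.00023) and r without the 2 farthest arrays was 0.769. Between the leading probes of MYOM1 and MYOM2 r was -0.21 and rho was -0.12, with r = -0.38 without the 2 farthest arrays, given without a test.

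**Figure D3:**
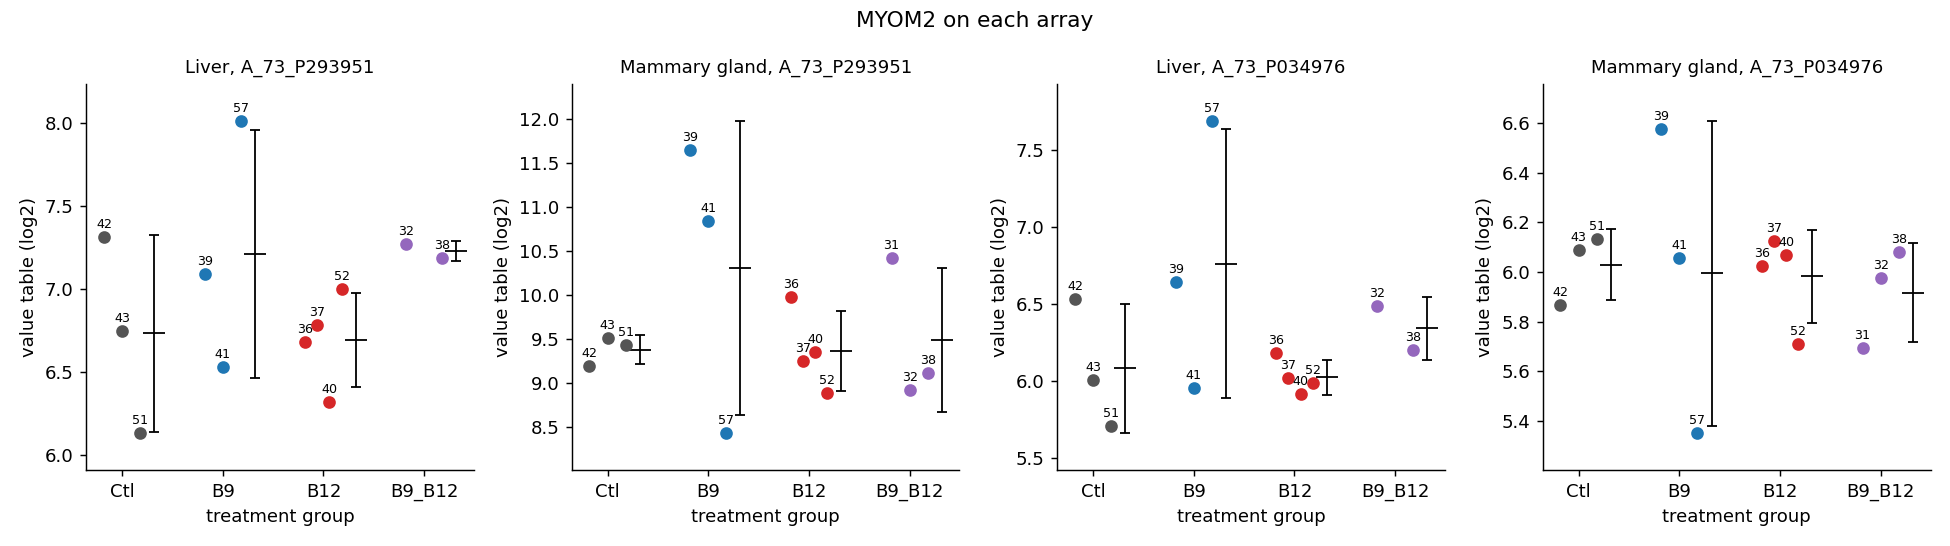
MYOM2 on each array, as log2 values of the authors' table, at the leading probe and at A_73_P034976 in liver and mammary gland. Points are single cows with their numbers, and the bar is the group mean with 1 SD. Cow 57 of B9 is highest in liver and lowest in gland at both probes, and cow 39 of B9 is highest in gland at both, and the vertical axes differ in range.

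In the gland, MYOM1 showed no treatment difference that passed the test at the leading probe, its only probe well above background there. In the gland of cow 57 this probe had a median signal of 2334.5, and A_73_P064251 was not well above background. In the liver of cow 36 the leading probe had 510, and A_73_P064251 was well above background. Whether the leading probe reads the same transcript in both tissues was not tested. The control glands read 9.59, 9.60 and 10.20 at the leading probe (cows 42, 43 and 51). The B9 glands read 10.47, 9.70 and 10.77 (cows 39, 41 and 57), of which 2 were above every control. The B12 glands read 10.17, 9.37, 9.13 and 9.22 (cows 36, 37, 40 and 52), of which 3 were below every control. The B9_B12 glands read 9.48, 9.49 and 10.25 (cows 31, 32 and 38). All 4 ranges overlapped in the order B9, Ctl, B9_B12, B12.

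The gland difference of B9 from control was 0.51 ± 0.33 (SE of limma, 95% interval -0.21 to 1.24, adjusted p = 1), with an exact permutation p of 0.2, where 3 against 3 cows cannot go below 0.1. The B12 difference was -0.33 ± 0.31 (interval -1.004 to 0.35, limma adjusted p = 1.00), with an exact permutation p of 0.371 against a smallest possible 0.0286. The B9_B12 difference was -0.06 ± 0.33 (interval -0.78 to 0.67, limma adjusted p = 1), with an exact permutation p of 0.6. The factors given for liver come from the values that chose the gene, so they were not set against these intervals. The difference between the tissues was not tested for the same reason. Limma called 0 of 43653 probes (0%) in each of the 3 gland comparisons, with 1137, 982 and 864 probes at an unadjusted p under 0.05, and Cyber-T called 12, 12 and 10 (0.0275, 0.0275 and 0.0229%), with 0 of the 7 member probes among them. With slide as a fixed term the B9 difference was 0.07. Within slides, B9 cow 39 differed from Ctl cow 51 by 0.27 and B12 cow 40 from the same control by -1.08, with the remaining 4 pairs between -0.38 and 0.05.

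MYOM2 in the gland was spread most widely within B9. Its leading probe read 9.20, 9.51 and 9.44 in Ctl cows 42, 43 and 51. It read 11.64, 10.84 and 8.44 in B9 cows 39, 41 and 57, so 2 cows lay above and 1 below all controls. The B12 glands read 9.98, 9.25, 9.35 and 8.89 (cows 36, 37, 40 and 52), and the B9_B12 glands 10.42, 8.93 and 9.11 (cows 31, 32 and 38). Over the 13 glands the range was 9.24-fold, with an SD larger than that of 99.4% of probes.

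None of the MYOM2 gland differences passed the test. B9 differed from control by 0.93 ± 0.65 (SE of limma, interval -0.49 to 2.34, adjusted p = 1; exact permutation p = 0.4). B12 differed by -0.01 ± 0.61 (interval -1.34 to 1.31, limma adjusted p = 1.00; exact permutation p = 0.943), and B9_B12 by 0.11 ± 0.65 (interval -1.31 to 1.52, limma adjusted p = 1; exact permutation p = 1). The B9 value rested on single cows: it was 1.86 without cow 57 and 0.26 without cow 39. A_73_P034976 gave a B9 difference of -0.04 and A_73_P206487 of 0.21, yet cow 39 was the highest and cow 57 the lowest B9 gland at both, with 6.58 and 5.35 at A_73_P034976 and 6.34 and 5.65 at A_73_P206487. Over the 13 glands, r of the leading probe was 0.62 with A_73_P034976 (permutation p = 0.026, adjusted p = 0.0612; rho 0.46, permutation p = 0.117) and 0.51 with A_73_P206487 (permutation p = 0.082, adjusted p = 0.15; rho 0.28, permutation p = 0.351). Without the 2 farthest arrays these fell to 0.31 and -0.11, so the relation between MYOM2 probes in gland rests on those arrays. No relation of MYOM1 to MYOM2 was detectable in gland (r = 0.14, permutation p = 0.657; rho = 0.13, permutation p = 0.679; r = 0.17 without the 2 farthest).

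Muscle genes in the gland gave no call either, and limma called 0 of 43653 probes (0%) in each gland comparison. The zeros below are therefore not particular to any list. Of the 7 measured M-band genes 4 were well above background on all glands and 2 on none (OBSL1 and LRRC39), and 0 were called in any comparison. CKM ran from 7.87 to 8.64 in Ctl and from 7.11 to 8.84 over the treated glands, and SQSTM1 from 9.35 to 10.67 and from 9.28 to 11.36. FHL2 averaged 8.01 in Ctl, 7.96 in B9, 8.22 in B12 and 8.21 in B9_B12, and NBR1 averaged 7.57, 7.54, 7.48 and 7.63. TRIM63 was well above background on 1 of 13 glands. Of the 34 striated muscle genes 0 were called, and their summed level was 12.58 to 12.98 in Ctl, 12.22 to 12.99 in B9, 12.39 to 13.02 in B12 and 12.54 to 12.80 in B9_B12. The brightest of them were MYBPC3, TPM2, MYOD1, DES, MYBPC1 and ACTA1, with control means of 10.29, 9.85, 9.79, 9.83, 9.24 and 8.05 and B9 means of 10.12, 10.14, 9.62, 9.58, 8.80 and 8.29. The 12 genes of smooth muscle and myoepithelium, the contractile cells around the milk alveoli, gave 0 calls. They summed to 15.52 to 16.02 in Ctl, 15.59 to 16.57 in B9, 15.55 to 16.48 in B12 and 15.86 to 16.44 in B9_B12. Of 11 measured hepatocyte genes, 5 were well above background on all glands, and 0 were called. Their median difference in gland was 0.64 with B9, -0.15 with B12 and 0.33 with B9_B12. ALB ran from 5.09 to 6.64 in Ctl, 4.99 to 10.52 in B9, 5.11 to 5.52 in B12 and 5.56 to 7.70 in B9_B12. The part of hepatocyte genes in the gland values of MYOM1 and MYOM2 was not tested.

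The tissues were compared on scanner signals normalized together over all 25 arrays, since the authors' table was normalized within each tissue. By limma, 8157 of 43653 probes (18.7%) were called by that rule, 8.8% higher and 9.89% lower in liver, and 18.8% with the cow as a block. The leading MYOM2 probe was among the lower ones. It averaged 6.98 ± 0.33 in liver (SD, n = 12) and 10.38 ± 0.93 in gland (n = 13), a difference of -3.39 ± 0.28 (SE; 10.5-fold lower in liver, limma adjusted p = 1.81e-09). The liver was lower in 12 of 12 cows (exact sign-flip permutation p = 0.000488, the smallest 12 cows allow). With the cow as a block the difference was -3.27 (limma adjusted p = 5.65e-06).

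The other MYOM2 probes were lower in liver by less than 2-fold and were not called. A_73_P206487 differed by -0.45 (limma adjusted p = 3.88e-06; lower in 12 of 12 cows, exact sign-flip permutation p = 0.000488). A_73_P034976 differed by -0.27 (limma adjusted p = 0.0392; lower in 11 of 12 cows, exact sign-flip permutation p = 0.0508), and with the cow as a block its adjusted p was 0.0981.

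**Figure D4:**
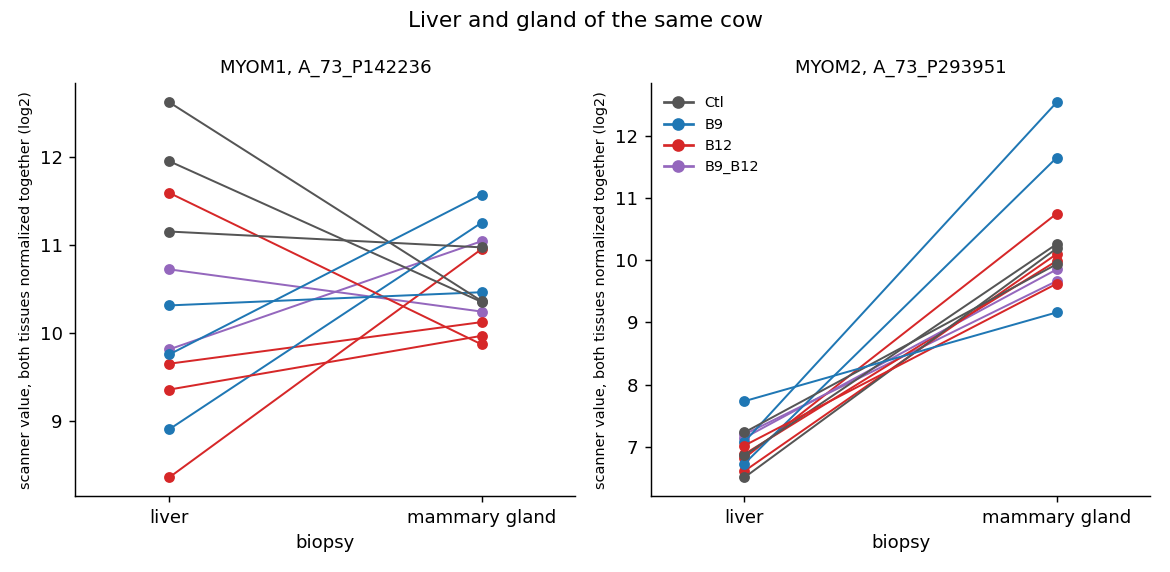
Leading probes of MYOM1 and MYOM2 in liver and gland of the 12 cows with both tissues, as log2 scanner values after normexp and quantile normalization over all 25 arrays. Each line is a cow, coloured by treatment. All MYOM2 lines rise from liver to gland, while the MYOM1 lines cross, with 5 cows higher and 7 lower in liver.

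For MYOM1 the tissue difference depended on the probe and on the scaling. The leading probe averaged 10.35 ± 1.29 in liver (SD, n = 12) and 10.57 ± 0.53 in gland (n = 13), a difference of -0.20 ± 0.30 (SE, 95% interval -0.83 to 0.42, limma adjusted p = 0.582). Liver was higher in 5 cows and lower in 7 (exact sign-flip permutation p = 0.589). In the authors' table the same probe read higher in liver by 1.28. Each tissue was normalized apart there, with array medians of 6.97 to 6.98 in liver and 6.13 to 6.14 in gland. That value is therefore not a comparison on a common scale, and no direction is given for the leading probe. A_73_P064251 was higher in liver by 0.64 (limma adjusted p = 1.27e-05, 11 of 12 cows, exact sign-flip permutation p = 0.00146), with means of 6.71 in liver and 6.10 in gland. With the cow as a block the difference was 0.65 (limma adjusted p = 0.000319). These MYOM1 tests use the liver values that chose the gene. Ctl cows 42, 43 and 51 differed by 1.15, 1.69 and 0.86, and treated cows by -0.13 (cow 36) to 1.01 (cow 32). A_73_P064251 was not well above background in any gland, which makes liver at least 1.52-fold higher at this probe. That bound takes for each gland the higher of the probe's own signal and the lowest signal among probes well above background.

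Across the 12 cows, the levels of MYOM1 at the leading probe in liver and in gland gave no relation past the test. Pearson's r was -0.41 (permutation p = 0.184, adjusted p = 0.253), rho was -0.28 (permutation p = 0.377) and r without the 2 farthest cows was -0.39. After the treatment mean of each tissue was taken off, r was -0.73 (exact permutation within treatment groups, p = 0.0278, adjusted p = 0.0612 over 11 relations) and rho was -0.73 (exact p = 0.0307, adjusted p = 0.0844). Without the 2 cows farthest from the median (36 and 40) r was -0.65. Cows with more MYOM1 than their group in liver tended to have less in gland, but the relation did not hold after adjustment. The 11 relations adjusted together include those given above without a test. The liver values used here are also those that chose the gene.

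**Figure D5:**
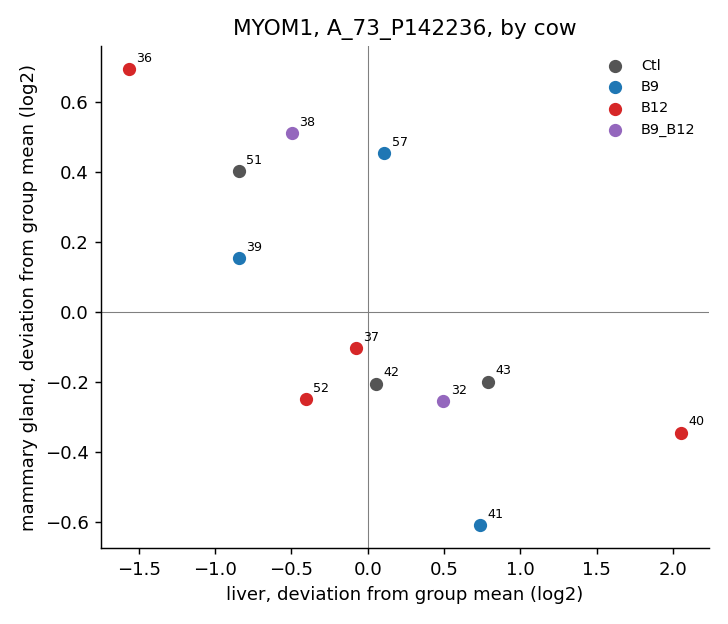
Leading MYOM1 probe in the 12 cows with both tissues, as the deviation of each cow from its treatment mean (log2) in liver on the horizontal axis and in gland on the vertical axis. Points are cows, coloured by treatment and numbered. Most lie in the upper left and lower right (r = -0.73), with cow 36 and cow 40 of B12 at the ends.

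The genes whose pattern over the 12 livers was most like the leading MYOM1 probe are a description, since these liver values chose the gene. Among 18291 named probes well above background on every liver, the 5 highest Pearson coefficients were 0.883 for SLC39A14, a zinc, iron and manganese importer of hepatocytes, 0.855 for PHYHD1, an oxygenase related to phytanoyl-CoA hydroxylase, 0.815 for GABBR1, a subunit of the GABA-B receptor, 0.814 for ALDH6A1, the mitochondrial methylmalonate semialdehyde dehydrogenase of valine breakdown, and 0.808 for MYO9B, an unconventional myosin. They are given without a p, since they are the top of a ranking in which all arrays are shared. They spanned far less than MYOM1. SLC39A14 ran from 13.86 to 14.11 in Ctl, 13.52 to 13.95 in B9, 13.54 to 14.07 in B12 and 13.70 to 13.78 in B9_B12. ALDH6A1 ran from 9.22 to 9.50 in Ctl, 8.88 to 9.17 in B9, 8.53 to 9.03 in B12 and 8.82 to 9.01 in B9_B12. GABBR1 ran from 6.67 to 7.06 in Ctl, 6.06 to 6.46 in B9, 6.11 to 6.93 in B12 and 6.46 to 6.58 in B9_B12.

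In the 13 glands, with 16761 probes ranked, the highest coefficients included those of CCDC59 (0.828), CCNG1 (0.776), CTTN (0.761) and HNRNPU (0.757). HNRNPU is an RNA-binding protein, CCNG1 is cyclin G1, and CTTN is cortactin, which organises branched actin. None of these 4 was among the 5 in liver. HNRNPU ran from 6.09 to 6.24 in Ctl, 6.28 to 6.60 in B9, 6.08 to 6.33 in B12 and 6.24 to 6.42 in B9_B12.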

How the data were processed

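The 25 samples were hybridised singly to Agilent bovine 4x44K one-colour arrays. Spot intensity was read by the authors with Feature Extraction (10.7.3.1 per the file headers, 9.1 per the submitters' processing notes). The deposited value table holds log2 values that the authors corrected with normexp and normalized between arrays. The values matched normexp with offset 16 and quantile normalization within each tissue (median absolute difference 0.00186 in liver and 0.000959 in gland). The comparison of tissues therefore does not rest on it, and its tissue differences appear only as a setting tried. These log2 values were used for treatments. For tissues, the deposited median and background intensity was corrected with normexp (offset 50) and quantile-normalized over all arrays. The method can shift tissue differences when many genes differ.

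Spots of a probe were averaged and control spots left out. Probe names were matched to RefSeq accessions, and 53.9% of 43653 probes gained a symbol. Different probes of a member gene were kept apart, and a list gene was represented by its brightest probe. Sequences were not used here, and the probes' design build (HGSC Btau_3.1) was not joined to coordinates.

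Each tissue was fitted with limma 3.58.1 (R 4.3.3) over all treatments, and p-values were adjusted over the whole array (Benjamini-Hochberg). Calls needed an adjusted p no greater than 0.05 with a change of 2-fold or more. Cyber-T, which the study used, was the alternative, with a window of 101 and a confidence of 10 set here. Slide, scan day, background correction, scaling, a filter on dim probes and each array left out were also tried. The cow number pairs the tissues, since it marks the same animal, and the fit with the cow as a block was set beside the unblocked fit. Gland differences also had two-sided exact permutation tests over cows. Named genes were all member probes, the M-band genes, the 6 brightest striated muscle genes per tissue and the 5 genes most correlated with MYOM1 in each tissue, of which 1 in gland is not reported here. The members and gene lists were chosen with earlier results of these data known. The fits were tested on simulated data.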

Additional observations from a re-analysis of the deposited data

How the results depend on the processing

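The liver MYOM1 differences at the leading probe ran from -2.91 to -2.06 for B9, -3.09 to -1.56 for B12 and -2.30 to -1.31 for B9_B12 over the settings tried. They use the values that chose the gene and are a description only. Cyber-T, the filter on dim probes and a fit of only the groups compared cannot change a difference of means. The normexp offset of 16, the scan-day settings and the removal of the liver arrays of cows 57 and 32 were chosen after seeing the data. Counts of called probes moved with the test. Cyber-T called 5, 48 and 26 probes in liver and 12, 12 and 10 in gland (B9, B12, B9_B12), where limma called 0, 1 and 0 and then 0, 0 and 0. With each array left out in turn, limma called 0 to 1 probes in every comparison except liver B9_B12, with 0 to 168 (168 without cow 38, 6 without cow 32). Leaving out the later scan day gave 0 for liver B12 and 7 for liver B9_B12, and leaving out the livers of cows 57 and 32 gave 20 for B9_B12. In gland, the MYOM2 difference of B12 (-0.01) reversed to 0.0159 with processed signals scaled to the 75th percentile, 0.0714 with slide as a random block and 0.38 with slide as a fixed block. With each array left out it ran from -0.22 to 0.14. The gland B9_B12 differences ran from -0.31 to 0.14 for MYOM1 and from -0.36 to 0.39 for MYOM2 with each array left out, so their signs are not settled. None of these gland values passed the threshold. The tissue difference of MYOM1 (-0.20) reversed to 1.28 in the authors' table, whose tissues were normalized separately and are not on a common scale. That of MYOM2 stayed between -4.51 and -2.67. With the cow as a replicate block the tissue differences were -0.24 for MYOM1 and -3.27 for MYOM2, which changed no call of the leading probes. The relation of liver and gland MYOM1 passed an unadjusted 0.05 after group means were taken off (r = -0.725, exact permutation p = 0.0278) and not by level (r = -0.41). The causes were not tested. Dim probes limit what can be said of A_73_P460156, A_73_P112381 and LRRC39.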
